A study of Mus musculus with 6 samples.

Results

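The genes described here encode the subunits of Polycomb repressive complex 2 (PRC2), taken as all probe sets of the array that the platform annotation assigns to a single gene symbol among Ezh1, Ezh2, Eed, Suz12, Mtf2, Phf19, Phf1, Jarid2 and Aebp2. A probe set is a group of short array probes read together as 1 expression value. The rule gave 10 probe sets for 9 genes, of 35557 probe sets in the table and 19938 genes with a probe set of a single symbol. Eed had 2 probe sets and each other gene had 1. Their levels were compared between undifferentiated mouse embryonic stem (ES) cells of the Hira-null clone Cl34 (genotype Hira-/-, 3 arrays) and of its parental wild-type (WT) line w9.5 (3 arrays). Both lines were grown in the same medium with ES-qualified serum and ESGRO, a leukaemia inhibitory factor supplement, and total RNA was hybridised to Affymetrix Mouse Gene 1.0 ST arrays. HIRA is a chaperone that places histone H3.3 on chromatin outside DNA replication. The series holds 1 Hira-null clone, so an effect of Hira loss and any other difference between clone and parent cannot be told apart. Cells were collected at several degrees of confluence, which the labels do not match to arrays. The replicates are labelled as biological, with no word on separate cultures, so a p-value reflects only the variation among these 6 arrays.

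PRC2 is the enzyme complex that methylates histone H3 at lysine K27, a mark of silent developmental genes. EZH2 or its paralog EZH1 supplies the catalytic SET domain, EED binds the finished mark and stimulates the enzyme, and SUZ12 is the scaffold that holds the complex together. Accessory subunits divide PRC2 into 2 forms, one (PRC2.1) built on a Polycomb-like protein, PHF1, MTF2 or PHF19, and the other (PRC2.2) on JARID2 and AEBP2. In ES cells PRC2 occupies the CpG-rich promoters of lineage regulators, and ES cells without Eed or Suz12 renew themselves but differentiate poorly. Deposition of H3.3 by HIRA has been linked to PRC2 recruitment at such promoters in mouse ES cells.

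All values are the deposited log2 expression values, and a difference is Hira-null minus WT on the log2 scale, with SD over n = 3 arrays, or a standard error (SE) and a 95% interval from limma. Array medians were 4.93 to 5.02. On principal component 1 (41.7% of the variance) Hira-null replicate 3 stood apart at -65.6, with the other 5 arrays at -1.95 to 32.0. Component 2 (26.8%) had the Hira-null arrays at -42.7 to -2.19 and the WT arrays at 5.12 to 40.7, with Hira-null replicate 1 and WT replicate 1 at its ends. Hira itself read 7.40, 7.05 and 6.81 in Hira-null arrays, against 7.49, 7.86 and 7.83 in WT arrays (limma adjusted p = 0.352), and which part of the gene was deleted is not stated. The ES cell markers Pou5f1 and Nanog read 10.70 to 11.58 in Hira-null arrays, and 10.78 to 11.45 in WT arrays. Tdgf1, the ES cell marker of highest mean, read 11.86, 11.86 and 11.17 in Hira-null arrays, and 11.54 to 11.78 in WT arrays. Of 8 ES cell markers, 0 were called and the median difference was -0.05. The median deviation of the 8 from their own means was -0.34 in Hira-null replicate 3, against -0.12 to 0.21 in the other arrays.

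No PRC2 subunit passed the test. All 9 genes, each through 1 probe set, passed the filter on low values (at least 3 of 6 arrays above 3.78), and 0 of these 9 were called at an adjusted p under 0.05 (limma), against a background of 0.00398% of 25142 probe sets (1 called). The smallest adjusted p among them was 0.275, for Suz12. At an unadjusted p under 0.05 there were 4 of 9, against 10.1% of all probe sets. These were Suz12 and Phf19 with lower values in Hira-null arrays and Eed and Aebp2 with higher ones. The same 4 were the members whose lines did not overlap, against 15.3% of all probe sets, of which 8.17% were lower and 7.09% higher. The other 5 members, Ezh1, Ezh2, Mtf2, Phf1 and Jarid2, overlapped between the lines. With both WT replicate 1 and Hira-null replicate 3 left out, 2 members had an unadjusted p under 0.05 on the lower side and 0 on the higher side. The plot of the 10 probe sets by array shows these values.

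**Figure D1:**
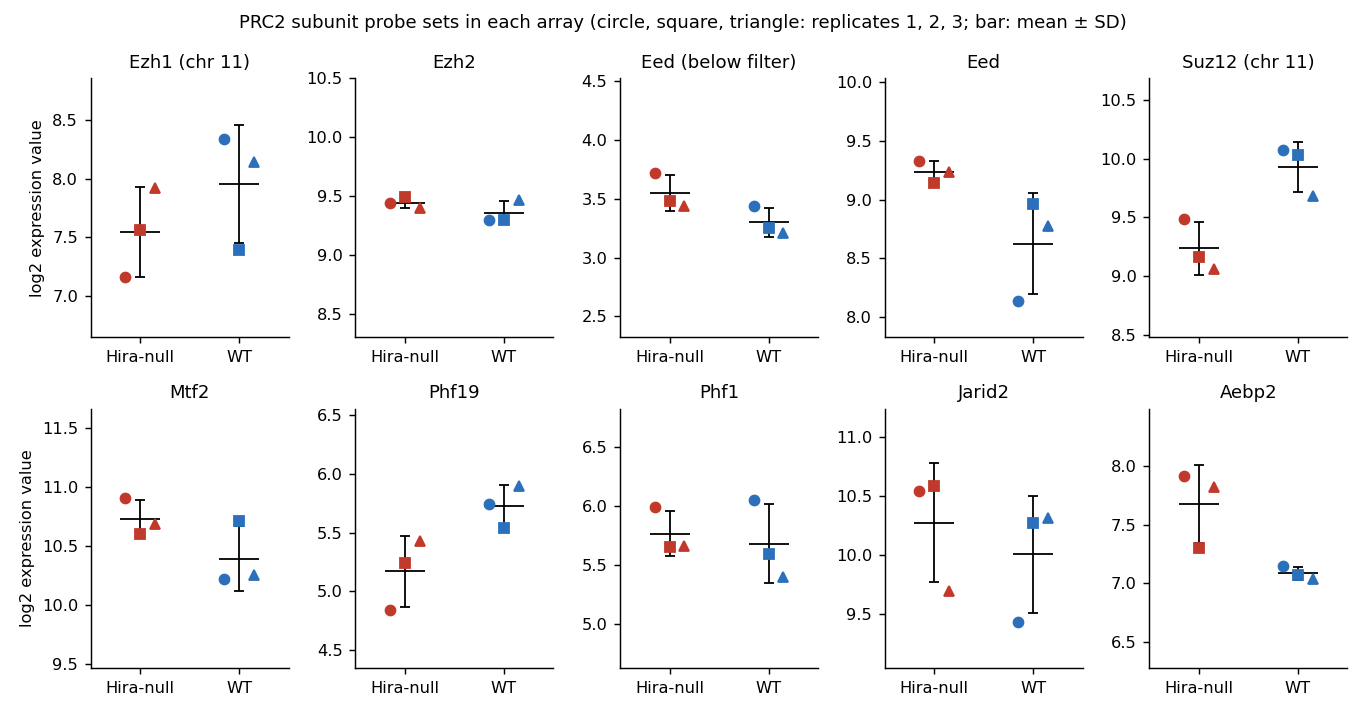
Log2 expression value (vertical axes, each spanning the same range) of each PRC2 subunit probe set in the 3 Hira-null arrays (red) and the 3 WT arrays (blue); circles, squares and triangles are replicates 1, 2 and 3, and the bars are mean ± SD. Suz12 and Phf19 lie lower and Eed and Aebp2 higher in all 3 Hira-null arrays, without overlap, while Ezh2 keeps within 9.30 to 9.49 in all 6 arrays.

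Among the 4 core genes, Suz12 and Eed differed in opposite directions, Ezh2 was nearly level and Ezh1 varied within both lines. The median difference of the core genes was -0.16, against 0.003 over all probe sets, with 2 positive and 2 negative. Suz12 (probe set 10379346, chromosome 11), the scaffold, read 9.49, 9.16 and 9.06 in Hira-null arrays, against 10.07, 10.03 and 9.68 in WT arrays. The highest Hira-null array lay below the lowest WT array. The means were 9.24 ± 0.23 and 9.93 ± 0.22, a difference of -0.69 (SE 0.17, 95% interval -1.10 to -0.28), or 1.61-fold lower (limma adjusted p = 0.275). Leaving out any 1 array gave differences of -0.82 to -0.60. In bulk RNA, fewer cells expressing a gene and less RNA per cell cannot be told apart.

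Eed (probe set 10565486, chromosome 7), the subunit that reads the mark, stood in the other direction. It read 9.33, 9.14 and 9.24 in Hira-null arrays, against 8.14, 8.96 and 8.78 in WT arrays. The Hira-null arrays lay close together and above every WT array, while WT replicate 1 lay well below the other WT arrays. The difference was 0.61 (SE 0.22, 95% interval 0.09 to 1.13), or 1.53-fold higher (limma adjusted p = 0.414). Without WT replicate 1 the difference was 0.37 (adjusted p = 0.623). The other Eed probe set, 10554837, read 3.72, 3.48 and 3.44 in Hira-null arrays and 3.44, 3.25 and 3.21 in WT arrays. It stayed below the filter and was not tested.

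Ezh2 (probe set 10544501, chromosome 6), the main catalytic subunit of dividing cells, read 9.44, 9.49 and 9.40 in Hira-null arrays, against 9.30, 9.30 and 9.47 in WT arrays. The lines overlapped, and the difference of 0.09 (95% interval -0.20 to 0.37, limma adjusted p = 0.886) had the smallest SE of the 9 members, 0.12. Ezh1 (probe set 10391378, chromosome 11), the paralog that prevails in many non-dividing cells, read 7.16, 7.56 and 7.92 in Hira-null arrays and 8.34, 7.39 and 8.14 in WT arrays. WT replicate 2 lay below 2 of the Hira-null arrays. The difference was -0.41 (SE 0.30, 95% interval -1.11 to 0.29, adjusted p = 0.724), and it ran from -0.69 without WT replicate 2 to -0.22 without Hira-null replicate 1. The difference of Ezh1 minus that of Ezh2 was -0.50. Taken per array as deviations from each gene's mean, Ezh1 minus Ezh2 averaged -0.25 ± 0.40 in Hira-null arrays and 0.25 ± 0.48 in WT arrays (SD, n = 3 each), and the lines overlapped.

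The promoters of Suz12 and Eed are shown because these core genes stood apart between the lines in opposite directions. Each run is the 250 bases before the annotated start in RefSeq (GRCm38.p6), on the gene's own strand. The capitals mark a match to one of 4 words bound by E2F factors, TTTCCCGC, TTTGGCGC, TTTCGCGC or TTTGCCGC, searched on both strands. E2F factors are known to control EZH2 and EED in human fibroblasts.
Suz12 (chr11:79992856-79993105, plus strand): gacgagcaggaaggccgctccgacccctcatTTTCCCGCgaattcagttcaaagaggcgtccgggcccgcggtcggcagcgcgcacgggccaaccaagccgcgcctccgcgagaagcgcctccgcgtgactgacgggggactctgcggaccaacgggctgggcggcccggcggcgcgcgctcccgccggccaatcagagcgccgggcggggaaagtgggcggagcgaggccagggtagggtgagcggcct
Eed (chr7:89980977-89981226, minus strand): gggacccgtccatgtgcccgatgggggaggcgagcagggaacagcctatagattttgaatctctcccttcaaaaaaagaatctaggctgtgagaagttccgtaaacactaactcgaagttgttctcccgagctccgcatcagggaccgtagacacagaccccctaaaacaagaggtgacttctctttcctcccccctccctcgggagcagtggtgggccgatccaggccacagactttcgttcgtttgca
The Suz12 run holds 1 match, which begins at position -219 from the start, and the Eed run holds 0. Over windows of 250 bases before to 50 after a start, 2.26% of 32851 windows in the table hold a match, and 5.15% of the 8701 windows with at least 20 CpG dinucleotides do. Every searched word contains a CpG. The 9 members have 13 windows, of which 3 (those of Suz12, Phf19 and Ezh2) hold a match, all 3 among the 9 windows with at least 20 CpG dinucleotides. The Ezh2 match begins at base 4 after the start. The Suz12 window holds 41 CpG dinucleotides and the Eed window 17, against a median of 7 over all windows. A match is a description of the letters and shows no binding.

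S phase genes, many of which E2F factors control, had 8 of 12 at lower values in Hira-null arrays, with a median difference of -0.34 and 0 called. The lines did not overlap for 4 of them (all lower, against 8.17% of all probe sets). Of these 4, Cdt1 lies on chromosome 8 and Cdc6 on chromosome 11, where values were lower along the whole chromosome (medians -0.27 and -0.24). Mcm6 and Rrm2 lie on chromosomes 1 and 12. The summed level of the S phase list on the log2 scale was 12.58 to 13.26 in Hira-null arrays, and 13.01 to 13.31 in WT arrays. Hira-null replicate 3 was the array apart, where the median deviation of the list was -0.57, whereas Hira-null replicates 1 and 2 had 0.13 and 0.09. Suz12 read 9.06 in Hira-null replicate 3, 9.49 and 9.16 in Hira-null replicates 1 and 2, and 9.68 to 10.07 in WT arrays. The part of S phase genes in the Suz12 difference was not tested.

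The PRC2.1 subunits did not differ in 1 direction, with values of -0.56 for Phf19, 0.09 for Phf1 and 0.34 for Mtf2. Their median was 0.09. These are the Polycomb-like proteins, whose winged-helix domain binds CpG-rich DNA and whose Tudor domain binds methylated H3K36. Phf19 (probe set 10481931, chromosome 2) read 4.84, 5.24 and 5.43 in Hira-null arrays, against 5.74, 5.54 and 5.90 in WT arrays. All Hira-null arrays lay below all WT arrays, the nearest being Hira-null replicate 3 and WT replicate 2. The difference was -0.56 (SE 0.19, 95% interval -1.00 to -0.11), or 1.47-fold lower (limma adjusted p = 0.400). Mtf2 (probe set 10523905, chromosome 5), a main Polycomb-like protein of ES cells, read 10.91, 10.60 and 10.69 in Hira-null arrays, against 10.22, 10.71 and 10.25 in WT arrays. WT replicate 2 lay within the Hira-null values, and the difference was 0.34 (95% interval -0.08 to 0.76, adjusted p = 0.589). Phf1 (probe set 10443063, chromosome 17) read 5.99, 5.65 and 5.66 in Hira-null arrays and 6.05, 5.59 and 5.40 in WT arrays. In both lines replicate 1 was highest, and the difference was 0.09 (95% interval -0.39 to 0.56, adjusted p = 0.937).

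The Phf19 promoter is printed as that of the other member with lower values and no overlap, by the same rules.
Phf19 (chr2:34913977-34914226, minus strand): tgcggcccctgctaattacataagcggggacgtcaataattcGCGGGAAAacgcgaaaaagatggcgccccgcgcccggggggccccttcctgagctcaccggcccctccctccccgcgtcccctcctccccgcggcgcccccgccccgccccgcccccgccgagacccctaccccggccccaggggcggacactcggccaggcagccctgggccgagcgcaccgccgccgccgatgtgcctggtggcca
It holds 1 match, in the reverse orientation, which begins at position -208 from the start, and its window holds 38 CpG dinucleotides.

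Both PRC2.2 subunits had positive differences, with a median of 0.43. Aebp2 (probe set 10542557, chromosome 6), a zinc finger protein that stabilises the complex, read 7.91, 7.30 and 7.82 in Hira-null arrays, against 7.15, 7.07 and 7.04 in WT arrays. The WT arrays lay within 0.11 of each other, and Hira-null replicate 2 was the array nearest to them. The difference was 0.59 (SE 0.18, 95% interval 0.16 to 1.02), or 1.51-fold higher (limma adjusted p = 0.369). Jarid2 (probe set 10404848, chromosome 13), a Jumonji family protein without demethylase activity that recruits PRC2 and stimulates it, read 10.54, 10.59 and 9.69 in Hira-null arrays and 9.43, 10.27 and 10.31 in WT arrays. Each line held 1 low array, Hira-null replicate 3 and WT replicate 1. The difference of 0.27 (SE 0.33, 95% interval -0.51 to 1.05, adjusted p = 0.869) was 0.56 without Hira-null replicate 3 and -0.02 without WT replicate 1.

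Aebp2 has 3 annotated starts, and the run shown is the one with the most CpG dinucleotides, 21 in its window.
Aebp2 (chr6:140624659-140624908, plus strand): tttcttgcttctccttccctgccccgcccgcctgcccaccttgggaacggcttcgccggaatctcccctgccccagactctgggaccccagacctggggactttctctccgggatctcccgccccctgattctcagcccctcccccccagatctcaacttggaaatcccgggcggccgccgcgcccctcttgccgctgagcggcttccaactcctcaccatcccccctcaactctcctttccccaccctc
None of the 3 Aebp2 windows holds a match to the E2F words, and the other 2 windows hold 4 CpG dinucleotides each.

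The array with the lowest and the array with the highest value of the 6 were noted for each member. WT replicate 1 was the lowest of the 6 arrays for 4 of the 9 members, Eed, Mtf2, Jarid2 and, level with WT replicate 2, Ezh2. It was the highest for 3 others, Ezh1, Suz12 and Phf1. Hira-null replicate 1 was lowest for Ezh1 and Phf19 and highest for Eed, Mtf2 and Aebp2. The same counts over all probe sets were not made, so these show nothing particular to PRC2 subunits. The differences of the subunits with their intervals are shown in the plot of subunits and cofactors.

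**Figure D2:**
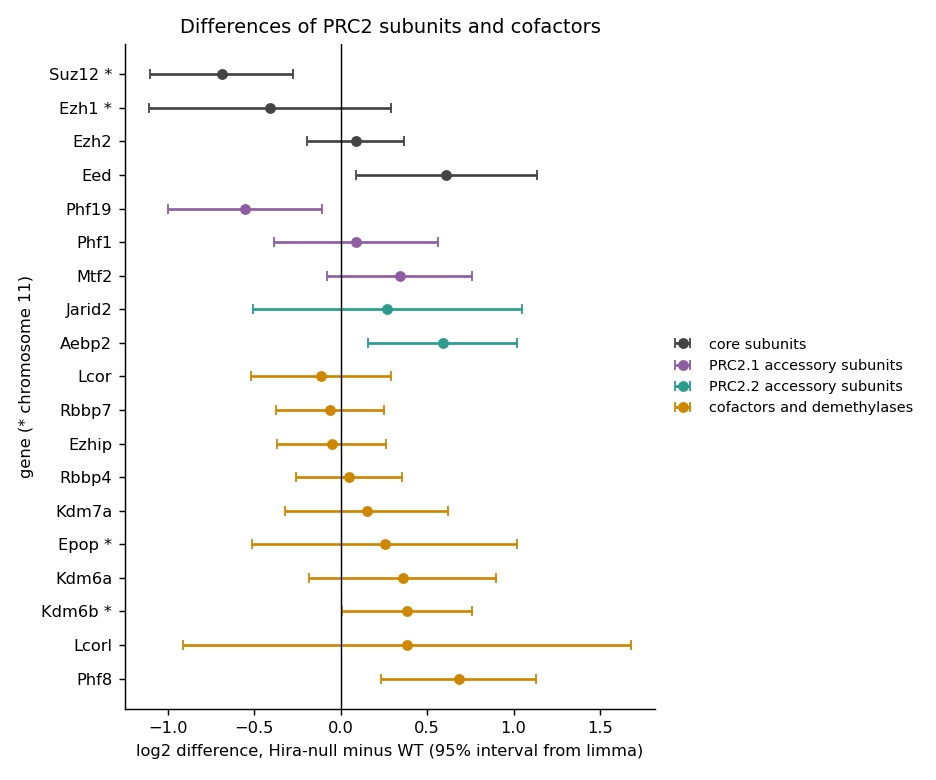
Log2 difference, Hira-null minus WT (horizontal axis), with its 95% interval from limma for each PRC2 subunit and each measured cofactor or demethylase gene, by role; an asterisk marks a chromosome 11 gene. The intervals of Suz12 and Phf19 lie below 0 and those of Eed, Aebp2, Phf8 and Kdm6b above 0, and none of these genes passed the test over all probe sets.

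Suz12 and Ezh1 are genes of chromosome 11, where values were lower in Hira-null arrays along the chromosome. Over 1351 measured genes of chromosome 11 the median difference was -0.24, and 82.5% were negative. The lines did not overlap, with lower values, for 33.2% of these genes, against 5.49% of 12991 genes outside chromosomes 8 and 11. The Suz12 difference of -0.69 was beyond the lower quartile of the chromosome, -0.46, and 6.74% of its genes had a more negative one. For Ezh1, at -0.41, that share was 29.98%. With each array's median deviation over the other chromosome 11 genes subtracted, Suz12 stood at 0.05, -0.33 and -0.42 in Hira-null arrays, against 0.37, 0.33 and -0.002 in WT arrays. Hira-null replicate 1 then lay above WT replicate 3, so the lines overlapped, and the difference was -0.47. The same step left -0.19 for Ezh1, with arrays at -0.45 to 0.28 in the Hira-null line and -0.48 to 0.47 in the WT line. Fitted with these centred values, neither passed (limma adjusted p = 0.490 for Suz12 and 0.908 for Ezh1).

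**Figure D3:**
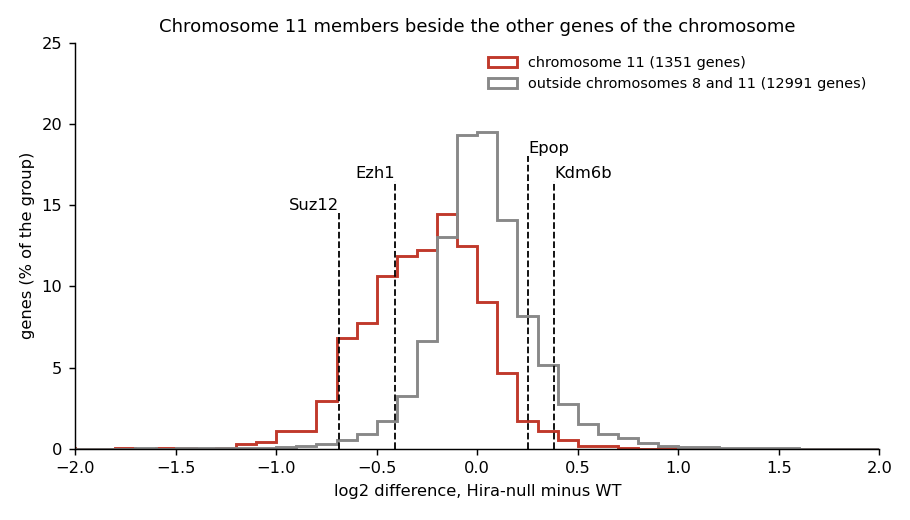
Distribution of log2 differences, Hira-null minus WT (horizontal axis), as the share of genes in each bin of width 0.1 (vertical axis, %), for the 1351 measured genes of chromosome 11 (red) and the 12991 outside chromosomes 8 and 11 (grey); dashed lines mark Suz12, Ezh1, Epop and Kdm6b, all of chromosome 11, and genes beyond the axis ends are not drawn. Suz12 (-0.69) and Ezh1 (-0.41) lie on the negative side of the chromosome 11 distribution and Epop (0.25) and Kdm6b (0.38) on its positive side.

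The neighbours of Suz12 and Ezh1 also had mostly negative differences. Of the 5 measured genes on either side of Suz12, 10 of 10 were negative, from -1.26 to -0.01, with a median of -0.42. They include Tefm, a mitochondrial transcription elongation factor gene, at -1.26, the cytokine receptor-like gene Crlf3 at -0.91, Rnf135, a ubiquitin ligase gene, at -0.80, and Utp6, which acts in ribosomal RNA processing, at -0.58. The tumour suppressor gene Nf1 stood at -0.13. Around Ezh1, 9 of 10 were negative, from -0.93 for the gamma-tubulin gene Tubg1 to 0.02 for the kinase gene Wnk4, with a median of -0.38. The lines did not overlap for 6 of the 10 around Suz12 and 5 of the 10 around Ezh1, all lower. That share was 33.2% over all measured chromosome 11 genes and 8.17% over all probe sets. The 10 around Suz12 include the microRNA genes Mir193a and Mir365-2, at low values of 4.04 to 4.91, and Mir365-2 is among the 6. In all, 0 of the neighbours were called.

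The 3 genes whose values over the 6 arrays were most like those of Suz12 lay on chromosomes 8 and 11. Likeness was the root mean square difference between the deviations of 2 genes from their own means over the 6 arrays, over 14216 genes. The 3 nearest were the amino acid transporter gene Slc7a6 (0.081, chromosome 8), the phospholipase gene Ddhd2 (0.083, chromosome 8) and the clathrin adaptor gene Clint1 (0.085, chromosome 11), and 4 genes in all lay under 0.1. Chromosome 8 is the other chromosome with a negative median, -0.27. Of the measured genes of chromosomes 8 and 11, 82.9% and 82.5% had negative differences. Likeness takes in the difference between the lines, so it favours such genes. For Ezh2, 956 genes lay under 0.1, and the nearest were the zinc finger gene Zfp420 (0.019), the RNA-binding protein gene Igf2bp3 (0.022) and the homeobox gene Nkx6-1 (0.026). Likeness leaves out the level. Zfp420 read 4.34 to 4.57 and Nkx6-1 4.69 to 4.91, under the array medians of 4.93 to 5.02. Igf2bp3 read 7.39 to 7.61 and Ezh2 9.30 to 9.49.

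Of 11 other genes of the pathway that were listed, 10 passed the filter. Of these 10, 0 were called, 7 had positive differences and 3 negative ones, and the median was 0.20. The 95% intervals of all but Phf8 and Kdm6b include 0. The lines did not overlap for these 2, both higher, against 7.09% of all probe sets. Rbbp4 and Rbbp7, the histone-binding proteins of the core complex, stood at 0.05 (95% interval -0.26 to 0.36) and -0.06 (-0.38 to 0.25). The PRC2.1 cofactor gene Epop read 8.77, 8.55 and 8.55 in Hira-null arrays and 7.62, 8.96 and 8.53 in WT arrays, with WT replicate 1 the low array. Lcor and Lcorl, whose loci encode the PALI cofactors of PRC2.1, stood at -0.11 and 0.38, and Ezhip, an inhibitor of PRC2, at -0.05. The cofactor gene Skida1 was below the filter and not tested, at 4.20, 4.02 and 3.73 in Hira-null arrays and 3.67, 3.54 and 3.49 in WT arrays.

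The enzymes that remove methyl groups from H3K27 had positive differences. Kdm6b (also JMJD3, chromosome 11) read 7.78, 7.70 and 7.43 in Hira-null arrays, against 7.04, 7.39 and 7.33 in WT arrays. Its lines did not overlap, and the difference was 0.38 (SE 0.16, limma adjusted p = 0.485). Among chromosome 11 genes, 98.7% had a more negative difference than Kdm6b and 97.3% a more negative one than Epop. The X-linked Kdm6a (also UTX) stood at 0.36 (adjusted p = 0.677) with overlap, and Kdm7a at 0.15 (adjusted p = 0.886). Phf8, also X-linked, is better known as a demethylase of H3K9 and H4K20. It read 6.84, 6.76 and 7.31 in Hira-null arrays, against 6.19, 6.16 and 6.51 in WT arrays, a difference of 0.68 (SE 0.19, adjusted p = 0.321) without overlap.

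Genes that PRC2 is known to hold silent in ES cells had differences centred on 0. Of 31 listed, 24 passed the filter, 3 (Olig2, Wnt1 and Bmp2) were below it, and the other 4 were not analysed here. Of the 24, 0 were called, 13 had positive and 11 negative differences, and the median was 0.01, against -0.01 over all genes. At an unadjusted p under 0.05 there were 2 lower, against 6.06% of all probe sets, and 0 higher, against 4.06%. Many of the 24 had means under the array medians (4.93 to 5.02) in both lines. Lhx5, Evx1 and Pax3, for example, had line means of 3.94 to 4.14, close to the filter value of 3.78. At such values a median near 0 cannot show whether silencing by PRC2 was kept, which was not tested. The members with the smallest p had lower values in Hira-null arrays. Pax6, a regulator of eye and neural development, read 4.96, 4.75 and 4.37 in Hira-null arrays, against 5.80, 6.01 and 5.89 in WT arrays. The lines lay well apart, and the difference was -1.21 (limma adjusted p = 0.220).

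Gata6, an endoderm regulator, read 6.06, 5.85 and 6.14 in Hira-null arrays, against 6.91, 6.36 and 6.42 in WT arrays, a difference of -0.55 (limma adjusted p = 0.394) without overlap. Gata6 belongs to the endoderm marker list as well. In that list 10 of 11 measured genes had negative differences, 4 of them without overlap (against 8.17% of all probe sets). The summed level on the log2 scale was 10.07, 10.14 and 10.58 in Hira-null arrays and 11.08, 10.57 and 10.64 in WT arrays. WT replicate 1 was the highest, and Hira-null replicate 3 lay just above WT replicate 2. Afp was below the filter in that list. The part of endoderm-like cells in the Gata6 value was not tested. Of the others named by p, the cell cycle inhibitor locus Cdkn2a stood at -0.42, the neural gene Neurog1 at -0.34, the endoderm gene Sox17 at -0.23 and the homeobox gene Msx1 at -0.17. The largest positive difference in the list was 0.38, for the mesendoderm gene Eomes. Fibroblast and feeder markers had 4 of 6 measured genes at negative differences. The lines did not overlap for 2 with lower values, Vim at -0.61 and Col1a2 at -0.72 (against 8.17% of all probe sets). They did not overlap either for 1 with higher values, Thy1 at 0.76 (against 7.09%), which had the smallest p of the list. The summed level of this list was 9.93, 9.99 and 10.11 in Hira-null arrays and 10.97, 10.17 and 10.27 in WT arrays, so WT replicate 1 stood apart. Most of this sum is Vim, which read 9.34 to 10.55. S100a4, Postn, Dcn and Lum were below the filter.

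**Figure D4:**
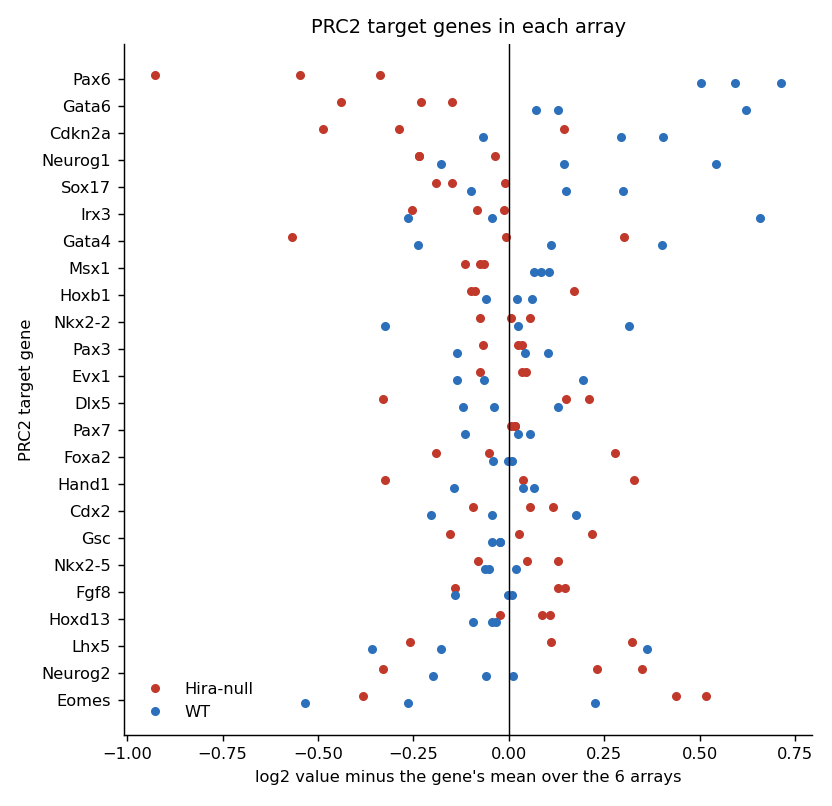
Log2 value minus the gene's mean over the 6 arrays (horizontal axis) for each of the 24 measured PRC2 target genes in the 3 Hira-null arrays (red, upper of each pair of rows) and the 3 WT arrays (blue). Pax6, Gata6 and Msx1 lie lower in all Hira-null arrays without overlap and Hoxd13 higher, and the other genes overlap between the lines. These are 3 lower and 1 higher of 24, against 8.17% lower and 7.09% higher over all probe sets. The differences of Msx1 (-0.17) and Hoxd13 (0.11) are small.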

How the data were processed

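Expression was measured on 6 arrays, 3 of the Hira-null clone and 3 of the parental WT line. The authors deposited log2 values per probe set, made with GCRMA per the submitters' processing notes, which give no version, and array medians of 4.93 to 5.02 show that they were normalized between arrays. This step hides a change shared by most genes. Their range, 1.14 to 14.03, showed the log2 scale. The genome build is not given in the sources that were used, and raw signals were not analysed here. Of 35557 probe sets, 21789 carry 1 gene symbol in the platform annotation, and 21698 of these were matched by Entrez identifier to a RefSeq gene table (GRCm38.p6) for current names and chromosomes. The filter required a value over 3.78, the 30th percentile of the table, in at least 3 arrays (25142 probe sets kept). In lists and chromosomes each of 15199 genes was given by the probe set of highest mean.

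The comparison used limma 3.58.1 in R 4.3.3 (lmFit and eBayes, two-sided, no covariates), p adjusted by Benjamini-Hochberg over those 25142 probe sets, threshold 0.05. Precision is limited by the number of arrays (median SE 0.172). No 2 arrays were identical. The script was tested on simulated data. Named were Hira, all members, all measured cofactors, the 6 target genes with the smallest p and some markers. Also named were neighbours of Suz12 and Ezh1, and the 3 genes most like Ezh2 and Suz12. The rule for markers was up to 2 of highest mean in a list, and Nanog, Thy1 and Col1a2 are outside it. Thy1, Col1a2, Eomes, Hoxd13 and the S phase genes were picked after their values were seen. So were the target genes given as examples of low values, and which neighbours to name. The members and lists were chosen with earlier results of these data known. Alternatives were other filters, normalizations, eBayes settings, array weights, a replicate block, left-out arrays, averaged probe sets and chromosome 11 centring.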

Additional observations from a re-analysis of the deposited data

How the results depend on the processing

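The count of 0 PRC2 subunits called held under all 16 alternatives tried, with a smallest adjusted p among members of 0.194 to 0.604. The number of probe sets called over the whole table was 1. It was 2 with the filter at the 50th percentile and with median centring, 5 with arrayWeights, 0 with both WT replicate 1 and Hira-null replicate 3 left out, and 0 to 41 when single arrays were left out, the 41 being without Hira-null replicate 2. With the replicate number as a block it was 0, and 0 subunits were called. The deviations of same-numbered arrays of the lines had r = -0.342, 0.173 and -0.0989 over probe sets. Hira-null replicate 3 and WT replicate 1, of unlike number, had r = 0.441. Deviations within a line of 3 arrays sum to 0, which constrains these correlations, so they cannot tell whether same-numbered arrays were paired. Leaving out single arrays turned the difference of Phf1 (-0.053 to 0.272, negative at -0.053 without WT replicate 3 and at -0.025 without Hira-null replicate 1) and of Jarid2 (-0.017 to 0.562, negative without WT replicate 1). Other subunits kept their direction under every alternative run. The core median ran from -0.29 without WT replicate 2 to -0.064 without Hira-null replicate 1, and the cofactor median from 0.031 without WT replicate 2 to 0.22, with 0.125 without WT replicate 1 and 0.091 without Hira-null replicate 3. Ezh1 minus the chromosome 11 median ran from -0.47 to 0.02, positive without WT replicate 1 and at 0.001 without Hira-null replicate 1. The causes were not tested. With 3 arrays a line, the 95% intervals of 5 of the 9 subunits include 0.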
